A study of Homo sapiens with 8 samples.

Results

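Mitochondrial ribosomal protein genes, whose symbols begin with MRPL or MRPS and a digit, accounted for 66 of the 19957 promoter windows counted by OGAP-seq in RPE1 cells. RPE1 is a human retinal pigment epithelial line immortalised with telomerase. OGAP-seq is a pull-down of genomic DNA fragments meant to enrich oxidised bases, and an input library of the same DNA without pull-down gives the background. The counts do not show which kind of DNA damage a pulled-down fragment carried. Each window reaches 1000 bp to either side of a gene start, and its value is the number of reads in it. The deposited table lists Ensembl identifiers without symbols, so names were assigned by position. The window's middle had to be no more than 500 bp from the RefSeq start of a single coding gene read in the same direction. That direction was known for 58 of the 66 windows, and MRPL35 and MRPS28 were among those without it. A gene of unknown direction was matched by its lower coordinate to plus-strand windows and by its upper one to minus-strand windows. The 66 windows belong to 64 genes, because MRPL12 and MRPS17 have 2 windows each. By symbol, 40 windows belong to the large subunit (MRPL) and 26 to the small subunit (MRPS), spread over 20 chromosomes with 8 on chromosome 17. A further 13 genes of the family in RefSeq had no window named in this way and stand outside the counts given here.

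The 4 groups were OGAP libraries from NuMA-depleted cells (KD, after doxycycline), input libraries from the same KD cells, OGAP libraries from WT cells without doxycycline, and input libraries from those WT cells, with 2 libraries each. NuMA, also called TDIF in the labels, is best known as a spindle pole protein. Doxycycline and NuMA depletion cannot be told apart, since all KD libraries and no WT library had the drug. Nothing in the labels says whether the replicate libraries were grown separately, so p-values reflect library-to-library spread alone, possibly technical. DNA counts hold no check of the cell type or of the depletion.

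The mitochondrial ribosome translates the few proteins encoded by mitochondrial DNA, which are subunits of the respiratory chain and ATP synthase. Its RNAs come from mitochondrial DNA, while its proteins are made from nuclear genes in the cytoplasm and imported. Inherited variants in several of these genes, MRPS2, MRPS14, MRPS16 and MRPS28 among them, cause combined oxidative phosphorylation deficiency. The symbol does not always give the place in the particle: MRPS30 and MRPS18A sit in the large subunit in structures of the human ribosome.

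Promoter reads numbered 560174 and 449833 in the KD OGAP libraries, 683567 and 645276 in KD input, 368593 and 397173 in WT OGAP, and 727901 and 771138 in WT input. An isolated member, meaning 1 whose window overlaps no other, had a median of 29.5 and 25.5 reads in the KD OGAP libraries. The same median was 36 and 33 in KD input, 20 and 24.5 in WT OGAP, and 35.5 and 36.5 in WT input. Single members therefore rest on few reads per library. Over 17042 to 17501 windows per group, replicate libraries differed by a chi-square per degree of freedom between 1.90 and 2.14. That value cannot tell whether a pair came from 1 library, since duplicate reads or a few extreme windows also raise it.

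Members whose windows overlapped another had few reads. Of the 66 windows, 30 overlapped another promoter window (45.5%), against 18.7% of all 19957 windows, 26.5% of 68 cytoplasmic ribosomal protein windows and 43.5% of 62 windows of other mitochondrial translation genes. In 26 of the 30 an overlapping window was on the opposite strand. In the other 4, the paired windows of MRPL12, a protein that also binds mitochondrial RNA polymerase, and of MRPS17, only the gene's own second window overlapped. The overlapping members had a median of 5.5 reads summed over the 8 libraries, and the isolated members had a median of 248. Per 1000 bases that no other window covers, however, the medians were 113 reads in overlapping members and 124 in isolated members, against 123 and 132 over all windows. The unshared length of the overlapping members ran from 0 to 1752 bp with a median of 49 bp. MRPL32 and MRPS34, with 0 unshared bases, held 0 reads. A low sum in an overlapping window therefore gives no level for the shared start region.

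**Figure D1:**
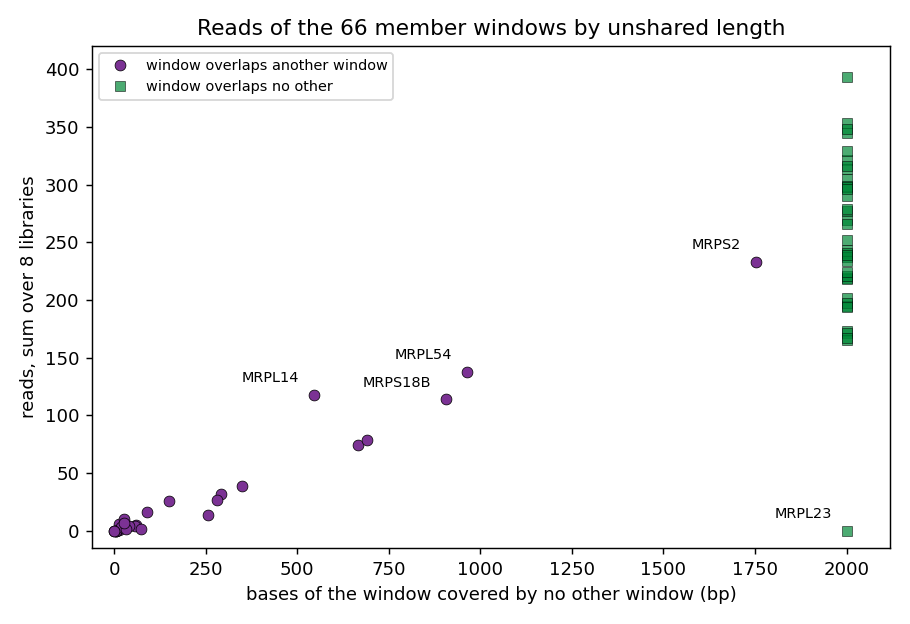
Reads summed over the 8 libraries (y axis) for each of the 66 member windows against the bases of the window that no other window covers (x axis, bp). Circles are windows that overlap another and squares are isolated windows; the circles climb with unshared length to MRPS2 at 1752 bp and 233 reads, and the isolated windows lie between 165 and 393 reads except MRPL23 at 0.

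Several of the partners are themselves mitochondrial genes. MRPL36 faced NDUFS6 and MRPL47 faced NDUFB5, both encoding subunits of respiratory complex I, and each of the MRPL36 and MRPL47 windows held 4 reads. MRPL43 faced TWNK, the mitochondrial DNA helicase gene, with 26 reads on 150 unshared bp. MRPS12 faced SARS2, the mitochondrial seryl-tRNA synthetase gene, with 39 reads on 350 unshared bp, the most of any member left out of the tests. MRPL46 and MRPS11 faced each other, so that a large-subunit and a small-subunit gene shared 1 stretch of chromosome 15. Their windows, chr15:88466420-88468420 on the minus strand and chr15:88466452-88468452 on the plus strand (hg38), each kept 32 unshared bases and held 5 and 2 reads. The MRPL46 promoter at chr15:88467339-88467638 (minus strand, RefSeq, GRCh38.p14) is shown as an example of such a shared start region, from 250 bases before to 50 after the gene start, 5′ to 3′. Capitals mark the letters AAGATGGCG, the core of the YY1 motif, on either strand.
MRPL46: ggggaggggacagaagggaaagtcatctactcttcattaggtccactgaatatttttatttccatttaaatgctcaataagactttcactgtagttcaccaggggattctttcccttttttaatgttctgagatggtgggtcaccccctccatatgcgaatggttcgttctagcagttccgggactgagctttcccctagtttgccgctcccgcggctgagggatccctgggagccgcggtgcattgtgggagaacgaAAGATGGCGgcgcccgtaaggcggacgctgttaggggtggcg
This promoter was 52.3% G and C, below the median of 60.7% over the 56 member genes with a RefSeq promoter, and the YY1 letters began at base 259.

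After the filter on low counts, 41 of the 66 members were tested, 22 of the large and 19 of the small subunit. They ranged from 74 summed reads at MRPL9 to 393 at MRPS16. The 25 left out held at most 39 reads; 24 of them overlapped another window, and 6 had no read in any library. Among those 6, MRPL32 (beside PSMA2) and MRPL21 (beside IGHMBP2) kept 0 and 5 unshared bases. MRPL23, on chromosome 11, overlapped no other window and was still listed at 0 in all 8 libraries, where a count of 0 allows up to 3 reads per library. The other isolated members held 165 to 393 summed reads, and why MRPL23 had none was not tested. The tested members are therefore mostly those with a promoter of their own: 35 were isolated, and the 6 overlapping ones were MRPL9, MRPL14, MRPL54, MRPS2, MRPS7 and MRPS18B.

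Summed over all 66 windows, the family received 2190 and 2268 reads per 1000000 promoter reads in KD OGAP, against 2184 and 2108 in KD input. In WT the sums were 2377 and 2450 in OGAP and 2095 and 2052 in input. Both OGAP libraries thus lay above both input libraries in KD and in WT, though the nearest pair in KD, 2190 against 2184, was almost level. Among the 41 tested members, the median in CPM (reads scaled to a library of 1000000) was 48.7 and 54.2 in KD OGAP, 50.4 and 48.7 in KD input, 54.0 and 63.4 in WT OGAP, and 44.8 and 45.4 in WT input. The 68 cytoplasmic ribosomal protein windows, of which 50 were isolated against 36 of the 66 members, summed to 3174 and 3512 on the same scale in KD OGAP, 3069 and 3140 in KD input, 3690 and 3920 in WT OGAP and 3213 and 3193 in WT input. Whether a share of a library reflects the pull-down or the base composition of the windows was not tested.

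Which promoters take a larger share of the pull-down than of the input in unperturbed cells is the question of OGAP against input in WT. In WT cells, 5 members were higher in OGAP, namely MRPL16, MRPL35, MRPS31, MRPS14 and MRPS28, and MRPS2 was lower, at adjusted p under 0.05 by the quasi-likelihood test of edgeR. The DESeq2 test called MRPL16 and MRPL35 of these. The 5 of 41 stand beside 9.25% of all 17130 tested windows called higher, and the 1 beside 4.45% called lower. With 6 of 41 called in either direction (14.6%), the family was close to the 13.7% over all windows. The members' median log2 change was 0.30, against -0.02 over all tested windows, and 25 of the 41 had a positive value (61.0%; 48.7% of all windows). The medians were 0.27 over 22 large-subunit members (2 higher) and 0.38 over 19 small-subunit members (3 higher, 1 lower). At an unadjusted p under 0.05 there were 10 members (24.4%), against 28.5% of all windows.

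The promoters of 5 called members are given here, each from 250 bases before to 50 after the gene start, 5′ to 3′ on the gene's strand (RefSeq, GRCh38.p14). They are shown so that the bases around these gene starts can be compared in composition. Each is only a part of the counted window, and the composition of whole windows was not measured. MRPL35 and MRPS28, also called, had no RefSeq promoter and therefore no value of composition. Capitals mark CCGGAAG, the core of the ETS motif, on either strand, so CTTCCGG is the same motif read on the other strand. MRPL16 lies at chr11:59810729-59811028 (minus), MRPS31 at chr13:40771141-40771440 (minus), MRPS14 at chr1:175023376-175023675 (minus), MRPS2 at chr9:135499715-135500014 (plus) and MRPL28, called in KD, at chr16:370489-370788 (minus).
MRPL16: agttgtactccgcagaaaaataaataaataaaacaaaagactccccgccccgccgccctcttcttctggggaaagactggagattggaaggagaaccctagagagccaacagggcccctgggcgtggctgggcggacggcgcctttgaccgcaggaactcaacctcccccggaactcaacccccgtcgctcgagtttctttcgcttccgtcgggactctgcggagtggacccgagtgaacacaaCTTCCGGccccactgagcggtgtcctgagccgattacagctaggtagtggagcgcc
MRPS31: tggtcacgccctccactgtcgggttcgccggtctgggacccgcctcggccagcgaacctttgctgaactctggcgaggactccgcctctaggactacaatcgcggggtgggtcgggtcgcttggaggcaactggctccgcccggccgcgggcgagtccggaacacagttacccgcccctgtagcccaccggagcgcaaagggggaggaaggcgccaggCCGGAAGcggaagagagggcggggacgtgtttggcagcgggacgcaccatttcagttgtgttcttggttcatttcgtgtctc
MRPS14: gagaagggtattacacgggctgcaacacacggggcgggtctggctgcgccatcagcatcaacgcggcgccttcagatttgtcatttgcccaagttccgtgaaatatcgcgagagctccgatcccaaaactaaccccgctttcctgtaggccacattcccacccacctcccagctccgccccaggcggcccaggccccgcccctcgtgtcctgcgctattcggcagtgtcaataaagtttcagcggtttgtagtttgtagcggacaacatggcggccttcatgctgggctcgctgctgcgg
MRPS2: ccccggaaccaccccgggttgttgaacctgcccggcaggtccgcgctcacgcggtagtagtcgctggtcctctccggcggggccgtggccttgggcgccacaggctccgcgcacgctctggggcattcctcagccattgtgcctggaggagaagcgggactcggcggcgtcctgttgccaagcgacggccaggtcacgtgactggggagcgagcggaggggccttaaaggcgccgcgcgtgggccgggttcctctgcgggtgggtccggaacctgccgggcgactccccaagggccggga
MRPL28: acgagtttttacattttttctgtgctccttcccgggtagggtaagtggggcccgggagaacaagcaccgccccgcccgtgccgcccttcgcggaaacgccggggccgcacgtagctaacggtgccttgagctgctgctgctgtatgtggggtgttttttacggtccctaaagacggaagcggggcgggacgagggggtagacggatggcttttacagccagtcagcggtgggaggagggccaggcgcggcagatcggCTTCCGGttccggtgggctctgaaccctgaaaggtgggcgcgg
The MRPS2 promoter, of the member called lower in WT, had the highest share of G and C of the 5 at 72.0% and 34 CpG dinucleotides. MRPL16 had 59.0% and 22 CpG, MRPS14 had 60.0% and 23, MRPL28 had 63.7% and 28, and MRPS31 had 66.0% and 30. The ETS letters began at base 245 in MRPL16, 219 in MRPS31 and 258 in MRPL28, and were not found in MRPS14 or MRPS2.

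MRPL16 (ENSG00000166902, window chr11:59809873-59811873, minus strand) encodes a large-subunit protein of the bacterial L16 family. Its reads numbered 35 and 39 with pull-down in WT (99.4 and 103 CPM), against 30 and 20 in the WT inputs (40.7 and 25.9 CPM). Both pull-down libraries lay far above both input libraries, a log2 change of 1.60 ± 0.37 (SE, edgeR adjusted p = 0.00126). Without the second WT input library the change was 1.30 and the adjusted p 0.0664 (edgeR). In KD the same window had 27 and 36 OGAP reads against 28 and 37 input reads, a log2 change of 0.41 ± 0.36 that did not pass.

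MRPL35 (ENSG00000132313, chr2:86198354-86200354, plus strand), a large-subunit protein, held 41 and 45 reads in WT OGAP (116 and 119 CPM) and 32 and 40 in WT input (43.4 and 51.9 CPM). These were the highest isolated-member levels in both WT OGAP libraries. The log2 change was 1.30 ± 0.34 (edgeR adjusted p = 0.00527), or 1.17 with adjusted p = 0.0612 without the first WT input library (edgeR). The KD value was also positive, 0.90 ± 0.37, with an edgeR adjusted p of 0.251.

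The other 3 higher members belong to the small subunit by symbol. MRPS31 (ENSG00000102738, chr13:40770174-40772174, minus strand) had 27 and 40 OGAP reads in WT against 19 and 32 input reads, that is 76.7 and 106 CPM against 25.8 and 41.5 CPM. Its log2 change was 1.43 ± 0.39 (edgeR adjusted p = 0.00727), and it was 1.18 without the second WT OGAP library and 1.12 without the first WT input library, neither past the threshold. MRPS14 (ENSG00000120333, chr1:175022426-175024426, minus strand), of the bacterial S14 family, had 29 and 27 OGAP reads (82.4 and 71.3 CPM) against 27 and 17 input reads (36.6 and 22.1 CPM), a log2 change of 1.39 ± 0.43 (edgeR adjusted p = 0.0196). That call was lost without either WT OGAP library or without the second WT input library, with values of 1.06 to 1.49. MRPS28 (ENSG00000147586, chr8:80029290-80031290, minus strand) stood at the edge of the threshold, with 28 and 24 OGAP reads against 30 and 18 input reads in WT and a log2 change of 1.16 ± 0.42 (edgeR adjusted p = 0.0481). Its call was lost in 11 of the 16 alternative settings run, among them without either WT OGAP library or the second WT input library, at 0.80 to 1.31, and with upper-quartile scaling (edgeR adjusted p = 0.0668) or no count filter (0.0532). In none of the 3 did the OGAP and input levels in CPM overlap in WT, which adds no support, since the same libraries gave the calls. Over all tested windows, 28.5% had both WT OGAP libraries above both WT inputs.

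MRPS2 was the member that fell. MRPS2 (ENSG00000122140, chr9:135498983-135500983, plus strand), of the bacterial S2 family, had 12 and 5 OGAP reads in WT (34.1 and 13.2 CPM), against 54 and 44 input reads (73.2 and 57.1 CPM). Its log2 change was -1.47 ± 0.45 (edgeR adjusted p = 0.0186), and -0.93 without the second WT OGAP library, which did not pass. The call was also lost without the first WT input library, at -1.29. In KD the OGAP level was 66.7 and 36.1 CPM from 37 and 16 reads, and the log2 change over KD input was 0.12 ± 0.39. The window is 1 of the 6 tested that overlap a neighbour.

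**Figure D2:**
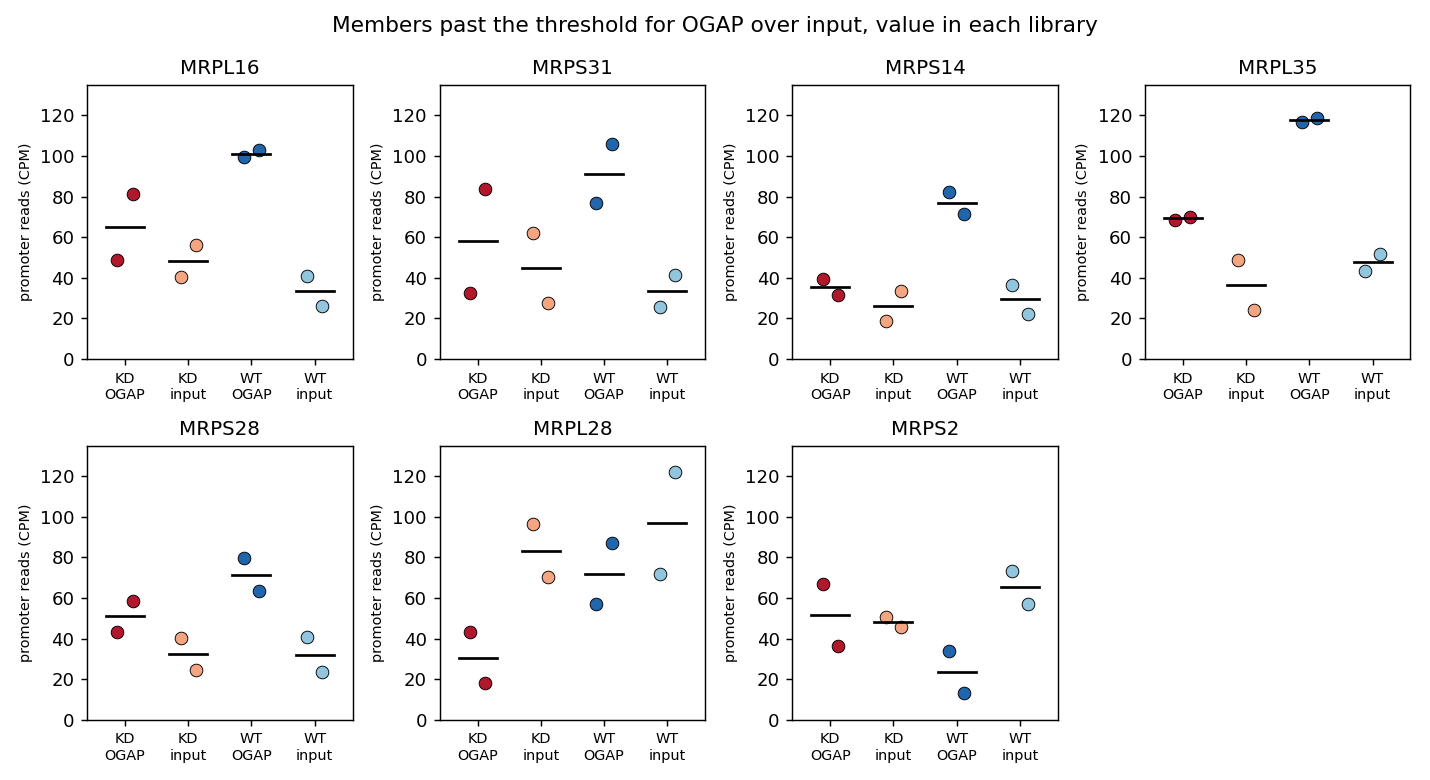
CPM in each of the 8 libraries (y axis) for the 7 members past the threshold for OGAP over input in WT or in KD, by group (x axis); points are libraries and bars their means. In WT the OGAP points lie above the input points for MRPL16, MRPS31, MRPS14, MRPL35 and MRPS28 and below them for MRPS2, and in KD the OGAP points of MRPL28 lie below its input points.

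Among members that did not pass in WT, MRPL14, of the bacterial L14 family, had the lowest value. It held 2 and 6 OGAP reads against 24 and 32 input reads, a log2 change of -1.74 ± 0.65 (edgeR adjusted p = 0.0557), in a window that overlaps that of TMEM63B. By p rather than by value, the next below zero were MRPL2 at -0.47 ± 0.36, MRPL28 at -0.42 ± 0.34, MRPL58 at -0.47 ± 0.39 and MRPS9 at -0.45 ± 0.42. MRPL58 is the peptidyl-tRNA hydrolase that rescues stalled mitochondrial ribosomes. On the positive side MRPL54 came nearest, at 1.21 ± 0.48 (edgeR adjusted p = 0.0743), followed in order of p by MRPL19 at 0.85 ± 0.36, MRPS25 at 0.73 ± 0.34, MRPL45 at 0.70 ± 0.37 and MRPS10 at 0.70 ± 0.38. MRPS16, the most counted member, had OGAP levels of 96.6 and 97.8 CPM against input levels of 69.2 and 80.4 CPM in WT, and its log2 change of 0.38 ± 0.31 did not pass.

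Counted by the libraries alone, 18 of the 41 members (43.9%) had both WT OGAP libraries above both WT input libraries in CPM, where 28.5% of all tested windows did. The opposite order held for 8 members (19.5%), against 28.0% of all windows. The 8 were MRPL2, MRPL3, MRPL9, MRPL14, MRPL58, MRPS2, MRPS26 and MRPS30.

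In NuMA-depleted cells, OGAP against input singled out 1 member. MRPL28 was lower in OGAP, and no member was higher, where 0.105% and 0.630% of all 17130 tested windows were called lower and higher. The members' median log2 change was 0.08, against 0.03 over all tested windows, with 23 of 41 positive (56.1%; 52.5% of all windows) and 5 at an unadjusted p under 0.05 (12.2%; 12.6% of all windows). MRPL28 (ENSG00000086504, chr16:369528-371528, minus strand) encodes a large-subunit protein of the bacterial L28 family. It held 24 and 8 reads in KD OGAP (43.2 and 18.1 CPM), against 67 and 46 in KD input (96.5 and 70.1 CPM). The log2 change was -1.39 ± 0.37 (edgeR adjusted p = 0.0459). In WT it held 20 and 33 OGAP reads (56.8 and 87.2 CPM) against 53 and 94 input reads (71.9 and 122 CPM), so there the groups overlapped. The KD call rested on single libraries: without the second KD OGAP library the log2 change was -0.95 with adjusted p = 0.501, and without the first KD input library it was -1.15 with adjusted p = 0.398 (edgeR). It was likewise lost at -1.61 (adjusted p = 0.0875, edgeR) without the second KD input library, and at adjusted p = 0.0539 without the second WT input library.

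MRPS21, a small-subunit protein, had the highest value in KD. It held 41 and 41 OGAP reads (73.9 and 92.5 CPM) against 30 and 21 input reads (43.2 and 32.0 CPM), a log2 change of 1.13 ± 0.35 with an edgeR adjusted p of 0.104. In WT the same window had 85.2 and 97.8 CPM in OGAP and 62.4 and 64.9 CPM in input, at 0.52 ± 0.33. MRPL35 (0.90 ± 0.37), MRPL34 (0.71 ± 0.32), MRPL15 (0.79 ± 0.42) and MRPL45 (0.60 ± 0.36) had the next lowest p-values above zero, without passing. Below zero, the members with the lowest p after MRPL28 were MRPL20 (-0.71 ± 0.35), MRPL22 (-0.68 ± 0.44), MRPS24 (-0.51 ± 0.38), MRPS15 (-0.48 ± 0.36) and MRPS23 (-0.47 ± 0.37), none of which passed. Both KD OGAP libraries lay above both KD input libraries for 10 of 41 members (24.4%; 24.3% of all windows) and below them for 7 (17.1%; 19.6% of all windows).

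**Figure D3:**
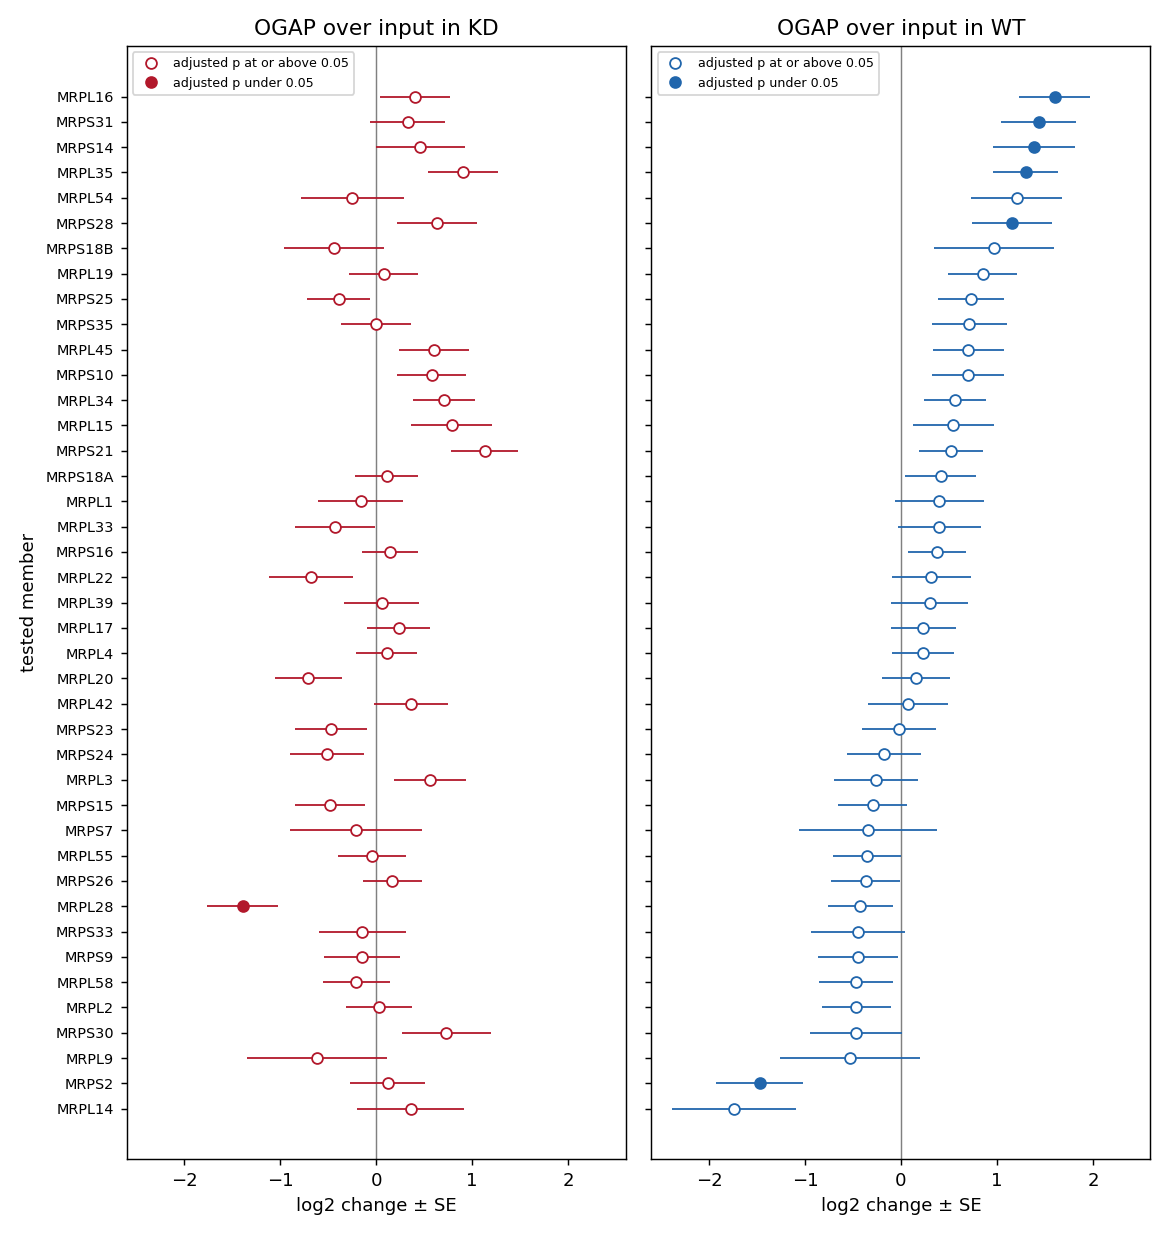
Log2 change of OGAP over input with its SE (x axis) for the 41 tested members (y axis, ordered by the WT value), in KD on the left and in WT on the right; filled points passed adjusted p under 0.05. WT values run from -1.74 to 1.60 with 6 filled points, and in KD only MRPL28 at -1.39 is filled.

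The KD and WT comparisons share no library. Across the 41 members, the log2 changes in KD and in WT had a Pearson r of 0.28 and a Spearman rho of 0.31, against 0.54 and 0.50 over 17130 windows; each point joins 2 noisy ratios from the same window, and these are descriptions. The sign was the same in both for 27 members (65.9%, against 67.7% of all windows), 17 positive and 10 negative. Counted by libraries, 7 members had OGAP above input in all pairs of libraries in both KD and WT (17.1%; 13.5% of all windows), namely MRPL34, MRPL35, MRPL45, MRPS10, MRPS16, MRPS21 and MRPS28. MRPL34, for example, had OGAP at 97.3 and 81.3 CPM against input at 60.5 and 48.8 CPM in KD, and OGAP at 96.6 and 92.5 CPM against input at 73.2 and 54.5 CPM in WT. MRPL58 alone was below input throughout (9.61% of all windows). Opposite orders in KD and WT were seen in MRPS25, MRPL3 and MRPS30 (3.88% of all windows).

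Whether depletion changes the pull-down at these promoters was read from KD against WT within OGAP. No member passed in this comparison, where 0.0350% of all tested windows, 6 in number, did. The smallest adjusted p over the members was 0.282 (edgeR), and 8 members had an unadjusted p under 0.05 by edgeR (19.5%; 10.6% of all windows) and 3 by DESeq2, which also called none. The median log2 change was -0.15, against 0.01 over all windows, and 15 of 41 were positive (36.6%; 50.8% of all windows). Both KD libraries lay below both WT libraries for 11 members (26.8%; 19.9% of all windows) and above them for 3 (7.32%; 19.6% of all windows).

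MRPL54, a large-subunit protein, had the lowest value. It held 12 and 9 reads in KD OGAP (21.6 and 20.3 CPM), against 20 and 24 in WT OGAP (56.8 and 63.4 CPM), a log2 change of -1.51 ± 0.52 (edgeR adjusted p = 0.282). Input levels were 34.6 and 15.2 CPM in KD and 32.5 and 19.5 CPM in WT, so the libraries separated in OGAP and overlapped in input. The members below zero with the next lowest p-values were MRPL28 at -1.19 ± 0.41, MRPS14 at -1.09 ± 0.44, MRPL35 at -0.76 ± 0.34 and MRPL22 at -0.96 ± 0.46. Of these, MRPL28 had 24 and 8 reads in KD OGAP against 20 and 33 in WT OGAP.

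Above zero stood MRPS2, MRPL3, MRPS26, MRPL14 and MRPL58. MRPL3, a large-subunit protein linked to inherited cardiomyopathy, had 41 and 28 reads in KD OGAP (73.9 and 63.2 CPM), against 11 and 14 in WT OGAP (31.2 and 37.0 CPM). Its log2 change of 1.0 ± 0.43 had an edgeR adjusted p of 0.386. MRPS26 had 64 and 30 reads in KD against 18 and 21 in WT (0.80 ± 0.36), and MRPS2 had 37 and 16 against 12 and 5 (1.16 ± 0.48). MRPL14 stood at 1.27 ± 0.70 from 8 and 18 reads in KD and 2 and 6 in WT, and MRPL58 at 0.48 ± 0.40. For MRPL3, MRPS26 and MRPS2 the KD and WT OGAP libraries did not overlap in CPM, but the difference did not pass the test in any of them.

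Input DNA differed between KD and WT at no member past the threshold, nor at any window (0% of those tested). The adjusted p was 0.999 for each of the 41 members (edgeR), 4 had an unadjusted p under 0.05 by edgeR (9.76%; 4.41% of all windows) and 1 by DESeq2, and the median log2 change was 0.02. MRPS18B, 1 of 3 human paralogs of the bacterial S18 protein, had the largest value, with 27 and 23 reads in KD input against 7 and 12 in WT input (1.54 ± 0.55). Its overlapping window left 905 unshared bp. MRPS25 (0.64 ± 0.32), MRPS18A (0.67 ± 0.33), MRPL16 (0.54 ± 0.37) and MRPS35 (0.42 ± 0.37) were the positive ones with the next lowest p-values. MRPS21 had 30 and 21 reads in KD input against 46 and 50 in WT input (-0.75 ± 0.34). The other lowest-p negative values were MRPS30 at -0.80 ± 0.44, MRPL14 at -0.83 ± 0.51, MRPL55 at -0.43 ± 0.33 and MRPS2 at -0.44 ± 0.36. Both KD input libraries lay above both WT input libraries for 5 members (12.2%; 17.3% of all windows) and below them for 4 (9.76%; 17.7% of all windows).

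**Figure D4:**
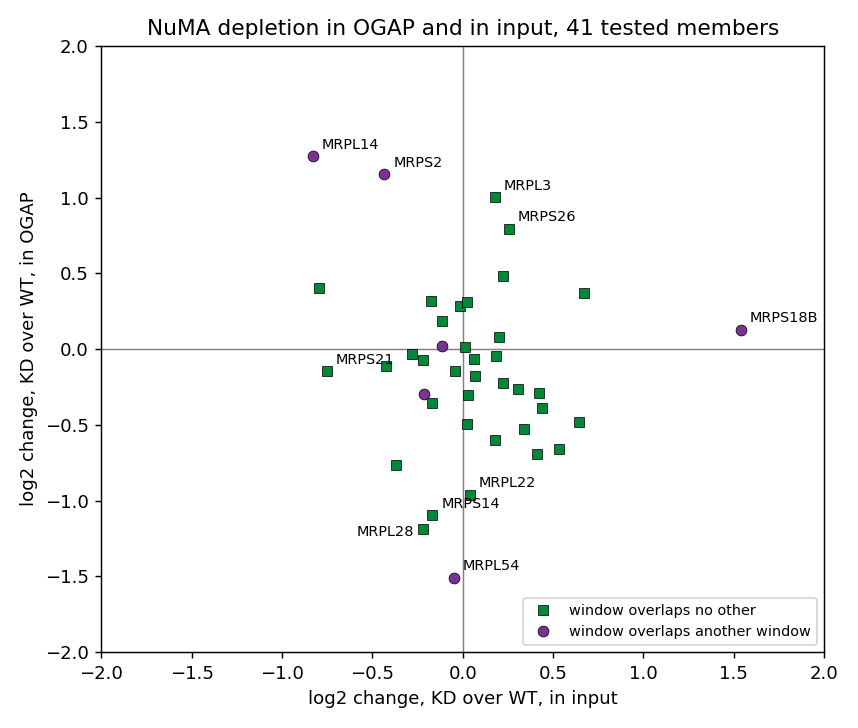
Log2 change of KD over WT in OGAP (y axis) against the same in input (x axis) for the 41 tested members; circles mark windows that overlap another and squares isolated windows. None passed in either comparison, and the widest values, MRPL54 at -1.51 and MRPL14 at 1.27 in OGAP and MRPS18B at 1.54 in input, belong to overlapping windows.

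The change of OGAP over input in KD minus that in WT, an interaction term in the same fit, passed at no member and at 0.00584% of all tested windows, which is 1 window. The smallest member adjusted p was 0.487 (edgeR), 6 members had an unadjusted p under 0.05 by edgeR (14.6%; 8.14% of all windows) and 3 by DESeq2, and the median was -0.19, against 0.02 over all windows. MRPS2 had 1.59 ± 0.60 and MRPL14 had 2.10 ± 0.86, both in overlapping windows. By p, MRPS30 came next at 1.20 ± 0.67, then MRPL3 at 0.83 ± 0.58 and MRPS21 at 0.61 ± 0.48. MRPL16, higher in WT and not past the threshold in KD, had -1.19 ± 0.52 (edgeR adjusted p = 0.545), so its KD and WT changes were not shown to differ. The same held for MRPS31 at -1.10 ± 0.55 and for MRPL28, called in KD alone, at -0.97 ± 0.51. MRPS25 stood at -1.12 ± 0.48 and MRPL54 at -1.46 ± 0.72.

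MRPS25 and MRPS30 showed opposite orders without passing. MRPS25 had OGAP levels of 54.1 and 72.2 CPM against input levels of 86.4 and 77.7 CPM in KD, while in WT both OGAP libraries lay above the inputs of 63.7 and 41.5 CPM. MRPS30 had OGAP levels of 46.9 and 36.1 CPM against input levels of 31.7 and 18.3 CPM in KD, and in WT 36.9 and 26.4 CPM in OGAP against 44.8 and 42.8 CPM in input. For both genes the log2 difference between KD and WT was larger in input (0.64 and -0.80) than in OGAP (-0.48 and 0.40).

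The choice of members did not use the sequence of their promoters. A RefSeq promoter was found for 58 of the 66 windows, or 56 genes. Their share of G and C ranged from 47.3% to 76.7% with a median of 60.7%, against 58.7% over all 35116 RefSeq promoters and 63.0% over the 12110 of named windows. The median number of CpG dinucleotides per 300 bases was 24.5, from 12 to 41, against 14.0 over all RefSeq promoters and 23.0 over those of named windows. The ETS core CCGGAAG, searched on both strands, occurred in 23 of the 56 genes (41.1%), among them MRPL16, MRPL28, MRPS16, MRPS21 and MRPS31, against 10.3% of all RefSeq promoters and 15.1% of those of named windows. The YY1 core AAGATGGCG occurred in 12 (21.4%; 1.75% and 2.88%), among them MRPL22, MRPS10, MRPS18A and MRPS30. The NRF1 core CGCATGCG, a motif known from promoters of nuclear genes for mitochondrial proteins, occurred in 3 (MRPL17, MRPL22 and MRPS18C; 5.36%, against 2.02% and 3.11%). TATAAA occurred in 2 (MRPL54 and MRPS15; 3.57%, against 11.5% and 9.40%). The ETS and YY1 letters can share the bases AAG, and a match is a string of letters, not a measured binding site.

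Base composition went with the WT values. Across the 37 tested members with a RefSeq promoter, the share of G and C had a Pearson r of -0.48 and a Spearman rho of -0.44 with OGAP over input in WT, against -0.05 and -0.03 in KD. Over 10446 tested windows the same r was -0.32 in WT and -0.25 in KD. The points share libraries and hence any composition bias of those libraries, and whether the 2 coefficients differ was not tested. The lowest G and C share, 47.3% at MRPL54, went with a WT log2 change of 1.21. The high shares of 73.7% at MRPL14 and 72.0% at MRPS2 went with -1.74 and -1.47, while MRPL34, at 72.3%, had 0.57 and MRPS26, at the highest share of 76.7%, had -0.37. The part of base composition in the WT calls was not tested.

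**Figure D5:**
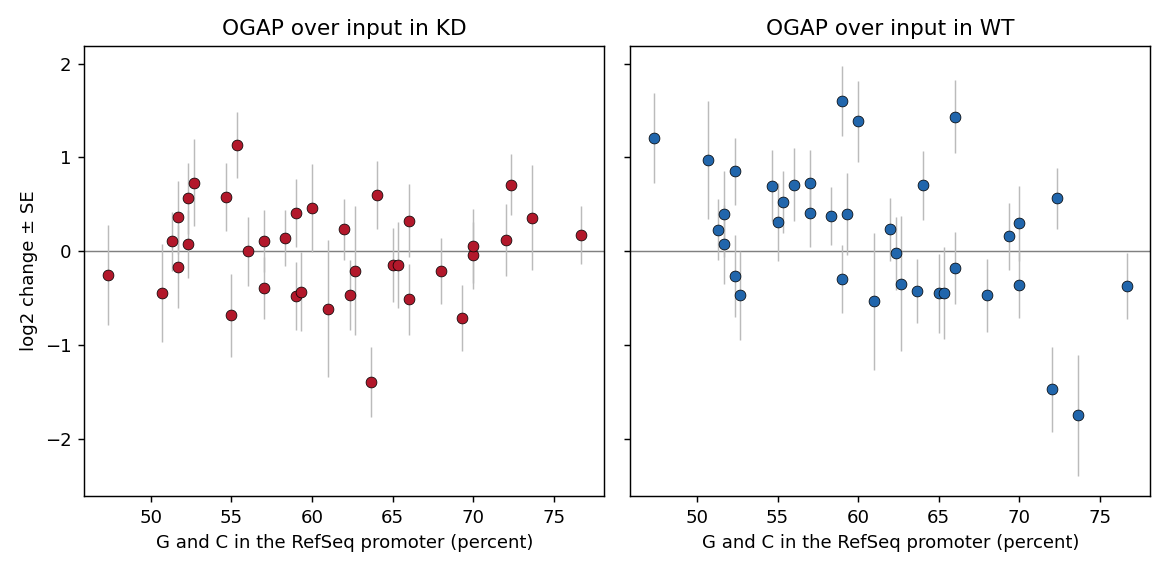
Log2 change of OGAP over input with its SE (y axis) against the share of G and C in the 300-base RefSeq promoter (x axis, percent) for the 37 tested members that have one, in KD on the left and WT on the right. WT values tend to be lower at a higher share (r = -0.48), with MRPL54 at 1.21 and 47.3% and MRPL14 at -1.74 and 73.7%, and in KD r is -0.05. The MRPL54 and MRPL14 windows overlap another window.

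Beside the family stood 2 related sets. Of 39 tested windows among the other mitochondrial translation genes, from a list of 75 symbols of ribosome assembly, translation factors and mitochondrial tRNA synthetases, 3 were higher and 0 lower for OGAP over input in WT, beside 9.25% and 4.45% of all tested windows, with a median log2 change of 0.24. They were MTRES1, a mitochondrial transcription rescue factor, with 42 and 48 reads in OGAP against 30 and 42 in input, PARS2, the mitochondrial prolyl-tRNA synthetase, with 37 and 40 against 37 and 39, and GADD45GIP1, a large-subunit component without an MRP symbol, with 31 and 46 against 40 and 41. Their edgeR adjusted p-values were 0.00204, 0.0263 and 0.0338. In KD none of the 39 passed, and GADD45GIP1 came nearest at 1.10 ± 0.32 (edgeR adjusted p = 0.0832). For KD against WT within OGAP, PARS2 had -1.32 ± 0.37 (edgeR adjusted p = 0.191). Among cytoplasmic ribosomal protein windows, 55 were tested, and WT gave 8 higher and 2 lower, beside the same 9.25% and 4.45%, with a median of 0.29. None passed in KD, at a median of 0.13. For KD against WT within OGAP, the median log2 change was -0.29 in the cytoplasmic set and -0.01 in the other mitochondrial translation genes, against -0.15 in the mitochondrial ribosomal protein genes. Leaving out 1 library at a time moved the -0.15 to between -0.24 and -0.01, and the sets were not tested against each other.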

How the data were processed

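DNA was sequenced from OGAP pull-downs and input in 8 libraries. The values used are the authors' deposited read counts per promoter window, not normalized. The submitters' processing notes name BWA 0.7.17-r1188, featureCounts, bedtools, MACS2 and the build hg38, without the role or settings of each. Whether counting used strand, and how reads in overlapping windows were assigned, is not given in the sources used here.

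Windows were named from RefSeq gene starts: 15378 of 19957 (77.1%) received a symbol. 452 windows had no read. Counts were fitted in edgeR 4.0.16 (R 4.3.3) with 4 group means over the 8 libraries, TMM scaling, the filterByExpr filter and the quasi-likelihood test. Benjamini-Hochberg adjustment ran over all 17130 windows tested, with a threshold of 0.05. The common biological coefficient of variation was 0.178. CPM are reads scaled to a TMM-adjusted library of 1000000. SE is the log2 change divided by the square root of its F statistic. Sampling limits and floors cover counting error only. The procedure was also run on simulated counts, with 200 changed windows drawn from those at or above the median level. Recovery of changes in windows below that level was not tested.

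In each comparison the text names every member past the threshold and, in each direction, the 5 with the lowest p that did not pass, plus the members with the fewest and most reads; others are named for a feature stated beside them and were chosen after their values were seen. The members and lists were chosen with earlier results of these data known. Alternatives were DESeq2 1.42.0 (size factors and test), upper-quartile scaling, other filters, a wider naming distance, leaving out overlapping windows or single libraries, and a replicate block. The metagene files were not used.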

Additional observations from a re-analysis of the deposited data

How the results depend on the processing

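OGAP over input in WT gave 6 called members, and 2 with the DESeq2 test (MRPL16 and MRPL35); leaving out 1 library at a time gave 2 to 7, with 2 without the second WT OGAP library and 3 without the second WT input library. OGAP over input in KD gave 1, and 0 with the DESeq2 test (where 37 of 41 members had no adjusted p), with the replicate block and with the block nested in KD and WT; leaving out 1 library gave 0 to 1. In the other 3 comparisons every setting run gave 0. These counts moved with those over all windows. In WT, 2346 windows were called in the main fit and 884 with the DESeq2 test. In KD, 126 were called in the main fit, 40 with the DESeq2 test, 97 with the block and 51 with the nested block. Leaving out single libraries also changed the number called over all windows. MRPS28 in WT lost its call in 11 of 16 settings, the block (edgeR adjusted p = 0.0510), the nested block (0.0636) and leaving out the second KD OGAP or either KD input library (0.0502 to 0.0552) included. With the block, replicate numbers being shared only as numbers (correlations of deviations -0.0397 to 0.0245), WT gave 5 members and the MRPL28 call in KD had an edgeR adjusted p of 0.0659. MRPL14 in WT passed with upper-quartile scaling (edgeR adjusted p = 0.0485), with no filter (0.0436) and without the first KD OGAP library (0.0455), and MRPL19 passed without the first WT input library (0.0469). Some values changed sign when 1 library was left out: in WT, MRPL28 ranged from -0.77 to 0.0013 and MRPS9 from -1.20 to 0.059; in KD, MRPS23 from -1.56 to 0.079; in input, MRPS35 from -0.12 to 1.33 and MRPL55 from -1.10 to 0.023. The members' median ranged from 0.17 to 0.32 in WT, -0.11 to 0.18 in KD, -0.24 to -0.01 for KD against WT in OGAP, -0.10 to 0.07 in input and -0.34 to -0.04 for the interaction. With 2 libraries a group and few reads per window, changes could have been missed, and no limit of detection is given here. A group left with 1 library was assumed to vary like the others.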

Other observations

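Naming windows within 1000 bp of a gene start added 6 windows to the family, of which 5 were tested. Of these, MRPL53 was higher for OGAP over input in WT, with 72 and 39 reads in OGAP against 35 and 36 in input and a log2 change of 1.70 ± 0.32 (edgeR adjusted p = 6.61e-05). MRPL48 was higher as well, at 1.33 ± 0.32 (edgeR adjusted p = 0.00248). These calls stand beside 9.25% of all tested windows called higher. MRPL38 at 0.72 ± 0.34, MRPL40 at -0.87 ± 0.39 and MRPL41 at -0.93 ± 0.64 did not pass. With the wider naming, 8 of 46 tested members were called in either direction, where 13.7% of all windows were. MRPL53's value exceeded that of every member named within 500 bp. MRPL53 and MRPL48 encode large-subunit proteins and were named after their values were seen.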
